A study of Mus musculus with 3 samples.

Results

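Malat1, a nuclear long non-coding RNA, and 9 protein-coding genes, Hnrnpu, Aspm, Atrx, Nktr, Nup214, Smc2, Sptbn1, Pabpc1 and Gbf1, were each measured by several probe sets that gave different answers about BMP4. They were taken from the 18193 genes that the platform annotation pairs with probe sets of their own, and the annotation gave them 49 of the 45101 probe sets on the array, none of them shared with another gene. A probe set is a group of short probes whose combined signal stands for a transcript or a stretch of it. The genes were chosen by their measured values: in each, at least 1 probe set exceeded its untreated value by 2-fold or more with BMP4 while another did not. The differences between these 2 arrays are therefore given as a description, and they support nothing about how the genes were picked.

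The cells were R1, an established mouse embryonic stem cell line, kept undifferentiated. One culture condition was untreated, one had BMP4 at 20 ng/ml for 4 h, and one had noggin at 100 ng/ml for 4 h; no time was labelled for the untreated cells. BMP4 is a ligand whose receptors activate SMAD proteins, and noggin blocks BMPs by holding them away from those receptors. Each condition had 1 Affymetrix array, so no value has a replicate error, no test of a difference was possible, and a difference describes these arrays. Values are log2 expression values computed by the authors with RMA, a method that normalizes the arrays together and gives 1 value per probe set. On this scale a difference of 1 is 2-fold, and a probe set was taken as measured when its highest value lay above a floor of 3.44, the median of all values.

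Each gene has a different task in the cell. Malat1 RNA stays in the nucleus and gathers at nuclear speckles, which hold splicing factors; it is among the abundant long non-coding RNAs of many tissues. Hnrnpu binds nuclear RNA and chromatin, and Nktr is a large cyclophilin with arginine-serine repeats of the kind found in splicing factors. Atrx is a chromatin remodeller of the SNF2 family that works at repeats and heterochromatin, and Smc2 is a core subunit of condensin, which compacts mitotic chromosomes. Aspm acts at the poles of the mitotic spindle, and Nup214 sits on the cytoplasmic face of the nuclear pore. Sptbn1 is a beta-spectrin of the membrane skeleton, Pabpc1 coats poly(A) tails in the cytoplasm, and Gbf1 activates ARF proteins at the Golgi. Probe sets of 1 gene can lie on different parts of its transcripts, on alternative 3′ ends or on introns, so 2 of them need not read the same molecules. Where the probes of these 49 lie within the transcripts was not analysed here.

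The labelled cell type was checked on marker genes. All 9 stem cell markers examined, among them Pou5f1, Sox2 and Nanog, lay between 9.26 and 12.83 on the untreated array. Of 8 fibroblast markers, 5 were above the floor, but Col1a1, Col3a1 and Lum were below it on all arrays, and the highest, Thy1, measured 4.91. The median of the list was 3.54 on the untreated and BMP4 arrays and 3.65 on the noggin array. Of 6 primitive endoderm markers, 4 were above the floor, with medians of 3.66 untreated, 3.84 with BMP4 and 3.71 with noggin. Within that list Sox7 measured 3.74 untreated, 4.73 with BMP4 and 3.84 with noggin, and Gata6 4.67, 5.20 and 4.82, while Gata4 and Foxa2 were below the floor. Of 5 trophoblast markers 3 were above, not Cdx2 or Elf5, and of 4 neuroectoderm markers 2, with Tubb3 at 7.36 on the untreated array, not Sox1 or Neurog2. The part of such cells in the results was not tested. The 24 probe sets for poly-A spikes, control transcripts that go through labelling with the sample, were all lower on the BMP4 array, by a median of −0.63, and 23 of them were lower on the noggin array, by a median of −0.18. The 18 probe sets for hybridisation spikes, added after labelling, had medians of 0.01 and −0.01. The part of this labelling difference in the results below was not tested.

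Of the 49 probe sets, 44 lay above the floor and 5 lay below it on all 3 arrays, 2 of Nktr, 2 of Gbf1 and 1 of Sptbn1. Among the 44, 13 were at least 2-fold higher with BMP4. Over the whole array 30 of 22755 probe sets above the floor did so, 0.132%; since this difference was what selected the genes, nothing is read from the contrast of the 2 shares. Of those 30, 15 belong to other single genes and 2 are not paired with a single gene in the annotation. The remaining 31 probe sets of the 10 genes ran from −0.27 to 0.98, with a median difference of 0.00. Of these 31, 23 were within 0.2 of 0 in either direction, as were 20661 of all 22755 probe sets above the floor. In 6 of the 31 the untreated and BMP4 values were exactly equal, as they were for 39.6% of all probe sets above the floor. At a limit of 1.5-fold, 18 of the 44 were higher with BMP4, against 0.519% of all probe sets. The genes were selected by this same difference, so nothing is read from these shares either. The limit cuts closely through Atrx, where 1 probe set was just inside at 1.01 and the next just outside at 0.98.

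**Figure D1:**
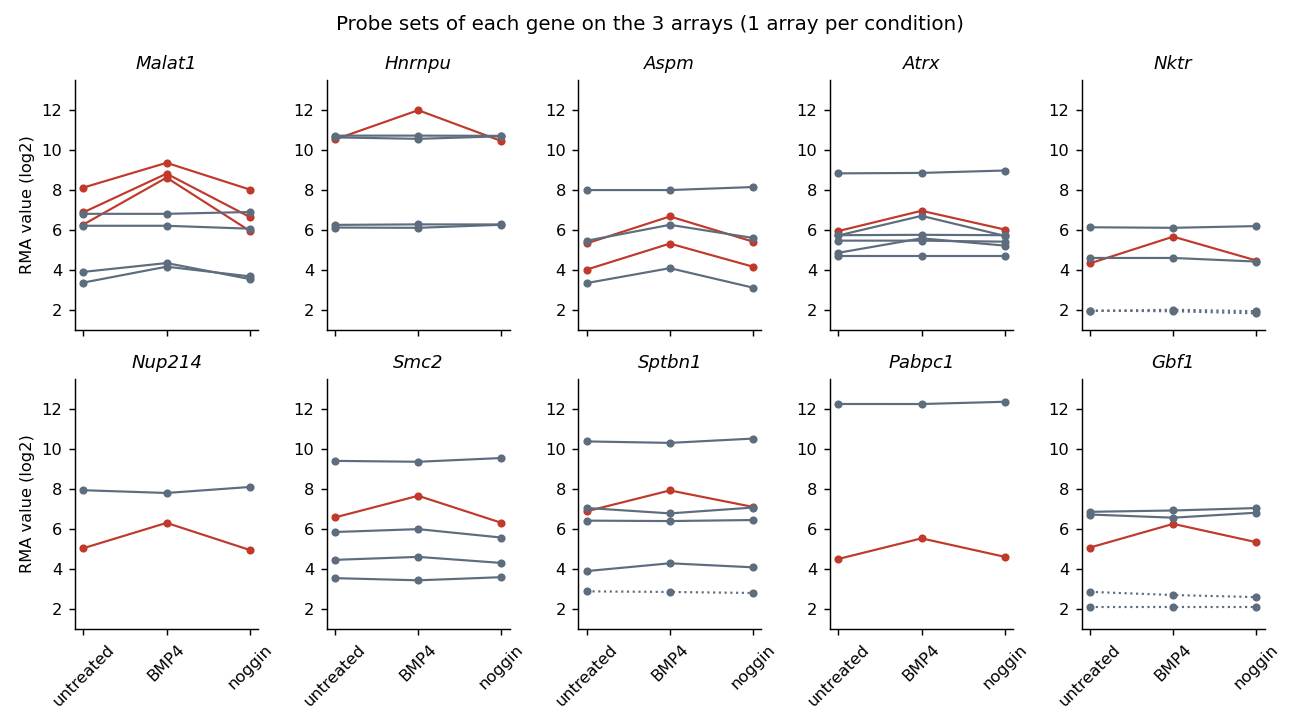
RMA values (log2, vertical axis) of every probe set of the 10 genes on the untreated, BMP4 and noggin arrays, 1 array per condition, with 1 line per probe set. Red lines are the 13 probe sets at least 2-fold higher with BMP4, grey lines the others, and dotted lines the 5 below the floor of 3.44 on all 3 arrays; the red lines peak at BMP4 and lie near their untreated values at noggin, while most grey lines are flat.

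Malat1 had 7 probe sets, all above the floor, and 3 of them were at least 2-fold higher with BMP4. The first, 1418188_a_at, measured 6.27 untreated, 8.61 with BMP4 and 5.95 with noggin, a 5.07-fold higher value with BMP4. Its neighbour in numbering, 1418189_s_at, measured 6.88, 8.81 and 6.65 in that order, 3.82-fold higher. The third, 1438403_s_at, measured 8.11, 9.35 and 8.02, 2.35-fold higher. All 3 stood highest on the BMP4 array and lowest on the noggin array.

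The other 4 Malat1 probe sets fell into a pair with smaller differences and a pair with none. 1427285_s_at measured 3.37, 4.16 and 3.68, a difference of 0.79, and started below the floor. 1452378_at measured 3.90, 4.34 and 3.55, a difference of 0.44. The last pair, 1429060_at at 6.80 and 1436202_at at 6.20, had exactly the same value on the untreated and BMP4 arrays. No Malat1 probe set was lower with BMP4 than without it. The 7 differences thus had a mean of 0.96, a median of 0.79 and a range of 2.34, the widest of any gene with at least 2 probe sets above the floor.

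Malat1 has a single start in the RefSeq promoter table, and the region around that start is shown for reference, since no sequence of the probes was used here. The RefSeq window of build GRCm38.p6 lies on the minus strand at chr19:5802623-5802922, from 250 bases before the start to 50 after it, and is written 5′ to 3′ with the first transcribed bases in capitals.
Malat1 promoter: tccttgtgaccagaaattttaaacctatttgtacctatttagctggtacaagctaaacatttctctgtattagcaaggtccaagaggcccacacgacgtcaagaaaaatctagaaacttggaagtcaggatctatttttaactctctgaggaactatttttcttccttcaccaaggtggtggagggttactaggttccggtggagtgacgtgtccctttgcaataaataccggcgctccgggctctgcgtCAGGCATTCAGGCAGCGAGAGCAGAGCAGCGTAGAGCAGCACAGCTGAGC
The GC-rich SMAD-binding element GGCGCC, which reads the same on both strands, is not among these letters. It was found in the windows of Aspm and Hnrnpu, 2 of the 9 genes that the promoter table holds, all but Pabpc1, and in 11.9% of 32851 windows of the same length. The palindromic element GTCTAGAC was found in none of the 9 and in 0.213% of all windows. A match is a description of letters and not a binding site.

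Aspm came next in the number of probe sets that differed, with 2 of 5 past 2-fold and another 2 past 1.5-fold. 1458560_at measured 5.32 untreated, 6.67 with BMP4 and 5.41 with noggin, and 1441520_at measured 4.02, 5.32 and 4.16. The pair below the limit, 1452459_at and 1458873_at, differed by 0.80 and 0.74, the latter passing the floor on the BMP4 array alone, from an untreated value of 3.34. The fifth, 1422814_at, measured 7.99 without and with BMP4 and 8.14 with noggin. For this spindle-pole gene 4 of 5 probe sets were therefore higher with BMP4, and the brightest was the exception.

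In Atrx the 7 probe sets split into 3 with higher values and 4 that were level. 1420947_at measured 5.94, 6.95 and 6.02 on the untreated, BMP4 and noggin arrays, a 2.02-fold higher value with BMP4. 1450051_at measured 5.72, 6.70 and 5.70, and 1420946_at 4.86, 5.58 and 5.21. The other 4 differed from the untreated array by 0.00 to 0.02, including 1433537_at, whose value was 8.82 untreated and 8.85 with BMP4. The noggin values of 1420947_at and 1450051_at were within 0.08 of the untreated ones, whereas 1420946_at was higher with noggin by 0.36.

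In Hnrnpu the difference lay in a probe set of high signal. 1450849_at measured 10.52 untreated, 11.98 with BMP4 and 10.44 with noggin, a 2.75-fold higher value with BMP4. Its other probe sets of high signal, 1423051_at at 10.71 on both arrays and 1423050_s_at at 10.62 and 10.55, differed by 0.00 and −0.07. The dimmer pair, 1434390_at and 1434391_at, gave −0.01 and 0.03. A single probe set of 5 thus carried the difference of this RNA-binding protein.

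In Nktr, the other gene tied to splicing, 1423249_at measured 4.33, 5.66 and 4.47 on the untreated, BMP4 and noggin arrays, 2.52-fold higher with BMP4. 1423248_at and 1437660_at differed by −0.03 and 0.00. The remaining pair stayed between 1.83 and 2.01 on the 3 arrays, in the background. The 3 measured probe sets of Nktr thus held 1 high value and a level pair.

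In the genes of the pore and of mitotic chromosomes the pattern was again 1 probe set against the rest. For Nup214, 1456503_at measured 5.05 untreated, 6.31 with BMP4 and 4.96 with noggin, while 1434351_at measured 7.94, 7.81 and 8.10. The Nup214 pair thus had differences of opposite sign, 1.26 and −0.14. For Smc2, 1429658_a_at measured 6.59, 7.66 and 6.32, a difference of 1.08. The other 4 probe sets of this condensin gene lay between −0.11 and 0.15, and the brightest of them, 1448635_at, measured 9.41 and 9.36.

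Among the cytoplasmic proteins, Sptbn1 had 6 probe sets, 5 of them above the floor. 1419256_at measured 6.89, 7.93 and 7.11 on the untreated, BMP4 and noggin arrays, 2.06-fold higher with BMP4, and 1451830_a_at was higher by 0.39. The other 3 lay between −0.27 and −0.02, and the lowest, 1444089_at, measured 7.06 untreated and 6.79 with BMP4. Sptbn1 thus held the lowest difference among the 44 measured probe sets as well as one past 2-fold.

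Pabpc1 and Gbf1 each had a single probe set past the limit. For Pabpc1, 1453840_at measured 4.51, 5.54 and 4.62, whereas 1418883_a_at, at 12.25 on both arrays and 12.36 with noggin, differed by −0.0018. For Gbf1, 1438207_at measured 5.08, 6.26 and 5.35, 2.27-fold higher with BMP4, while 1415757_at and 1415709_s_at differed by 0.07 and −0.16. The remaining Gbf1 pair, from 2.11 to 2.87, lay in the background on every array.

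**Figure D2:**
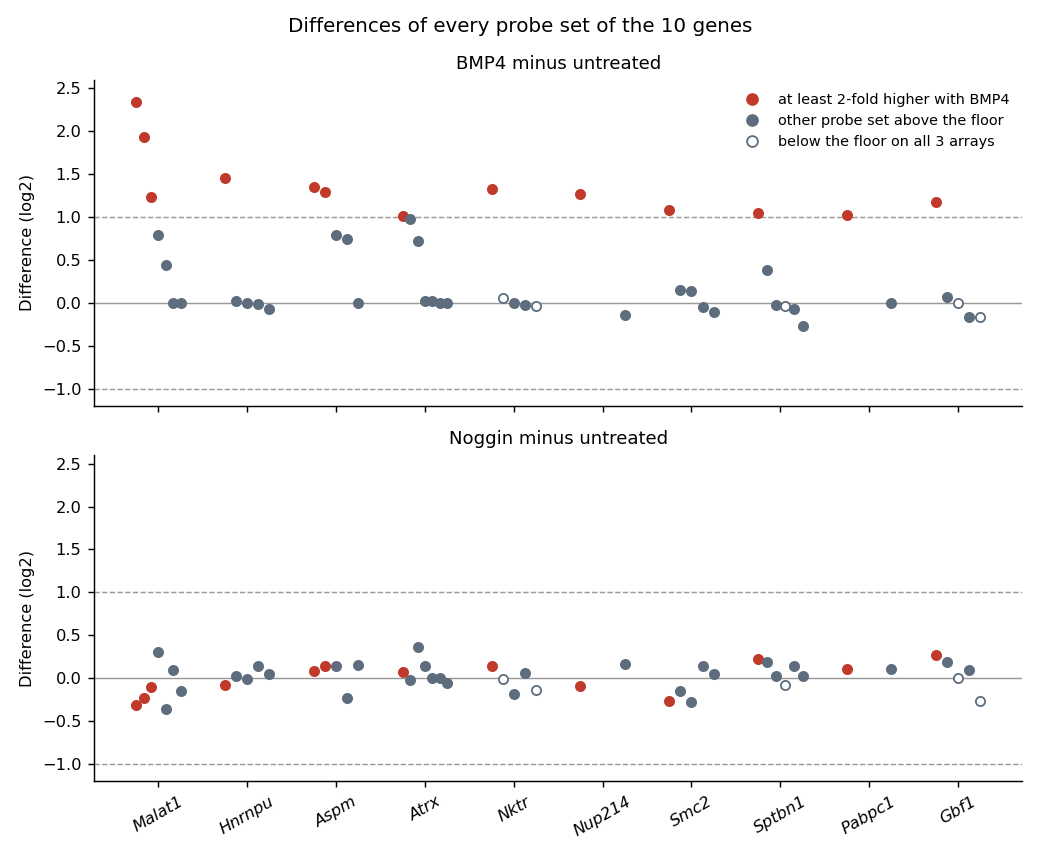
Difference from the untreated array (log2, vertical axis) of each of the 49 probe sets by gene, with BMP4 above and noggin below; each point is 1 probe set and the dashed lines mark 2-fold. The 13 red points, at least 2-fold higher with BMP4, lie between 1.01 and 2.34 in the upper panel and between −0.32 and 0.27 in the lower one; open points are below the floor.

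The noggin array was not used to choose the genes, but its comparison shares the untreated array with that of BMP4, so the 2 comparisons are given side by side only. None of the 44 measured probe sets was 2-fold or even 1.5-fold higher or lower with noggin. Over the array the shares were 0% at 2-fold and 0.202% at 1.5-fold. The 13 probe sets that were high with BMP4 ran from −0.32 to 0.27 with noggin, with 7 above and 6 below the untreated value and a median of 0.08. The other 31 ran from −0.36 to 0.36, with 20 above, 9 below and 2 equal, and a median of 0.05. Together 27 of the 44 were above and 15 below the untreated value, where 25.3% of all probe sets were above and 37.7% below it. The median size of the noggin difference, without its sign, was 0.14 for the 44 against 0.03 for all probe sets above the floor. Exactly equal values, which lower such a median, were found in 8409 of all 22755 and in 2 of the 44. The genes were also chosen on the shared untreated array, so nothing is read from these contrasts with all probe sets.

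By gene, all 5 Sptbn1, all 3 Gbf1 and both Pabpc1 probe sets were higher with noggin, by 0.02 to 0.27. In Malat1 5 of 7 were lower and 2 higher, between −0.36 and 0.31, a range of 0.67; of the 27 genes with 7 measured probe sets, 1 had a wider range with noggin, and their median range was 0.23. Smc2 had 3 lower and 2 higher, with a range of 0.42, where the 177 genes with 5 probe sets had a median of 0.20. The ranges of Hnrnpu at 0.22 and Sptbn1 at 0.20 lay near that median. Those of Aspm at 0.38, Atrx at 0.41, Nktr at 0.32, Nup214 at 0.25 and Gbf1 at 0.17 were above the median of genes with as many probe sets. Those medians were 0.20, 0.23, 0.12, 0.07 and 0.12 in that order. Among genes with as many probe sets as each of these, the share with a wider range ran from 8.12% for Nup214 to 31.5% for Gbf1. That share was 3.7% for Malat1, 13.0% for Smc2, 41.8% for Hnrnpu and 50.3% for Sptbn1. For Pabpc1 it was 82.8%. Pabpc1, whose probe sets were 1.03 apart in their response to BMP4, had noggin differences of 0.106 and 0.111.

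Set directly against the noggin array, BMP4 values were at least 2-fold higher for 9 of the 13 probe sets, against 0.18% of all, a contrast that contains the BMP4 array on which they were chosen. The 9 were the 3 of Malat1, the 2 of Aspm and those of Hnrnpu, Nktr, Nup214 and Smc2, with Malat1 reaching 2.66 for 1418188_a_at. Those of Atrx, Sptbn1, Pabpc1 and Gbf1 lay between 0.82 and 0.94. None of the other 31 passed, and the nearest was 1450051_at of Atrx at 0.998.

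Some probe sets of a gene were paired by the annotation with the same GenBank sequence, and 7 such groups were found among the 10 genes. The Malat1 pair 1418188_a_at and 1418189_s_at share 1 and were both high, at 2.34 and 1.93. Its pair 1427285_s_at and 1452378_at share another and were intermediate, at 0.79 and 0.44. The ranges within these Malat1 pairs were 0.41 and 0.35.

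In Atrx, Smc2 and Sptbn1 a single source sequence held probe sets on both sides of the limit. The 5 Atrx probe sets tied to the same sequence ran from 0.00 to 1.01, the 3 of Smc2 from 0.14 to 1.08, and the Sptbn1 pair 1419255_at and 1419256_at gave −0.02 and 1.04. The remaining pairs, of Hnrnpu at −0.01 and 0.03 and of Gbf1 at −0.16 and 0.07, held no high probe set. Across the array, 2296 groups of measured probe sets shared a gene and a source sequence, with a median range of 0.08 and a 95th percentile of 0.39. Of these groups, 6 held a probe set past 2-fold, and in 4 of the 6 it stood beside one at less than 0.5 times its difference. The 4 were those of Atrx, Smc2, Sptbn1 and Armc9, of which the first 3 genes were chosen for such a split and the last was named after its values were seen.

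The design of the probe sets is partly readable from their names. A plain suffix marks probes meant for 1 transcript, "_a" probes shared by transcripts of the same gene, and "_s" probes shared by similar transcripts, possibly of different genes. Of the 13 high probe sets, 9 had the plain suffix, 2 had "_a" and 2 had "_s", and of the other 31 there were 24, 2 and 5. The plain suffix made up 71.9% of all probe sets above the floor, "_a" 14.6% and "_s" 6.86%. The "_s" type among the 13 was found in Malat1 alone.

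Signal brightness depends on the probes as well as on the transcript, so its order within a gene is no measure of transcript amounts; it matters here because it decides which probe set is usually kept for a gene. On the untreated array, 12 of the 13 high probe sets were dimmer than another probe set of their gene, the exception being 1438403_s_at of Malat1. For all probe sets of genes with at least 2 the share was 62.4%, which depends on how many probe sets a gene has. The untreated value is part of the difference that chose the 13, so nothing is read from this contrast. Next, the probe set of the highest mean value over the 3 arrays stood for each gene. Of the 10 genes 2, Malat1 at 1.24 and Hnrnpu at 1.46, were then at least 2-fold higher with BMP4. The other 8 lay between −0.14 for Nup214 and 0.07 for Gbf1. Over the array 0.0949% of 11595 genes passed in this way, but the 10 were chosen on this same difference, so that contrast is not interpreted. Hnrnpu passed this way only through its BMP4 value: with the brightest probe set of the untreated array alone, a rule added after seeing the data, its difference was 0.00 and Malat1 was the 1 gene left. By the mean over a gene's measured probe sets none of the 10 passed, and Malat1 at 0.96 and Aspm at 0.84 were nearest. By the median none passed either, and the values ran from −0.02 for Sptbn1 to 0.80 for Aspm, while the probe set of the largest difference put all 10 past the limit, as the rule for choosing them requires.

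**Figure D3:**
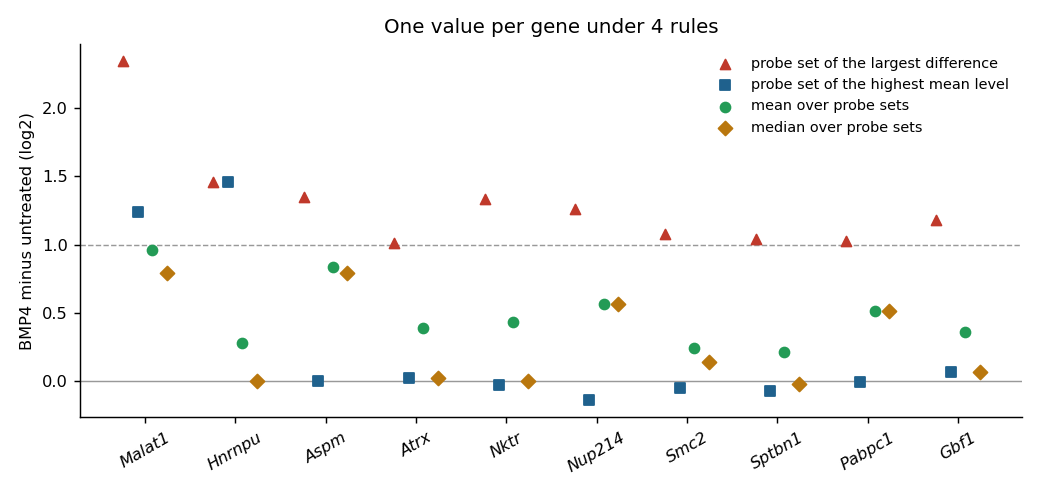
BMP4 minus untreated difference (log2, vertical axis) of each of the 10 genes when 1 value stands for the gene: the probe set of the largest difference (red triangles), the one of the highest mean level (blue squares), the mean (green circles) or the median (brown diamonds) over probe sets above the floor. The dashed line marks 2-fold; 10 triangles, 2 squares and no circle or diamond lie above it.

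How common such a split is was counted over the 5139 genes with at least 2 probe sets above the floor. A gene was counted as discordant when its highest difference was at least 1 and another was less than 0.5 times the highest. There were 14 such genes, 0.272%, of which 10 are the genes described here, as the choice fixes. Only 16 genes of several probe sets had any of them past 2-fold, so 87.5% of those 16 were discordant, and at a limit of 0.5 on the log2 scale 118 of 123 were, or 95.9%. The within-gene SD of the difference over 13666 probe sets of these genes was 0.13, and the median range within a gene was 0.10. With noggin, where no gene reached 2-fold, 52 genes had a probe set lower by at least 0.5, and 51 of them were split in the same way. So were all 7 with one higher by as much. Picking genes by their most extreme probe set favours such a split, and the BMP4 shares include the 10 genes chosen for it. Nothing is therefore read from the height of these shares.

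The 6 other genes of several probe sets with one past 2-fold were, in the order of their ranges, Zfp292 at 1.45, Armc9 at 1.27, Pggt1b at 1.15, Pfkp at 0.997, Id2 at 0.61 and Dusp9 at 0.26, each from the untreated and BMP4 arrays. The first 4 were discordant. Zfp292 and Armc9, with 5 and 4 probe sets, owed it to 1 probe set each, at 2.49 on the untreated array, under the floor, and at 3.84 and 3.72 with BMP4. Pggt1b, a subunit of a prenyltransferase, measured 5.54 and 6.65 by one probe set and differed by 0.00 and −0.05 by the others. Pfkp, a phosphofructokinase of glycolysis, gave 1.01, 0.22 and 0.02. Id2, a known BMP target, and Dusp9, a MAP kinase phosphatase, were the exceptions, in that all their probe sets passed, at 4.71 and 4.10 for Id2 and at 1.33, 1.27 and 1.07 for Dusp9.

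**Figure D4:**
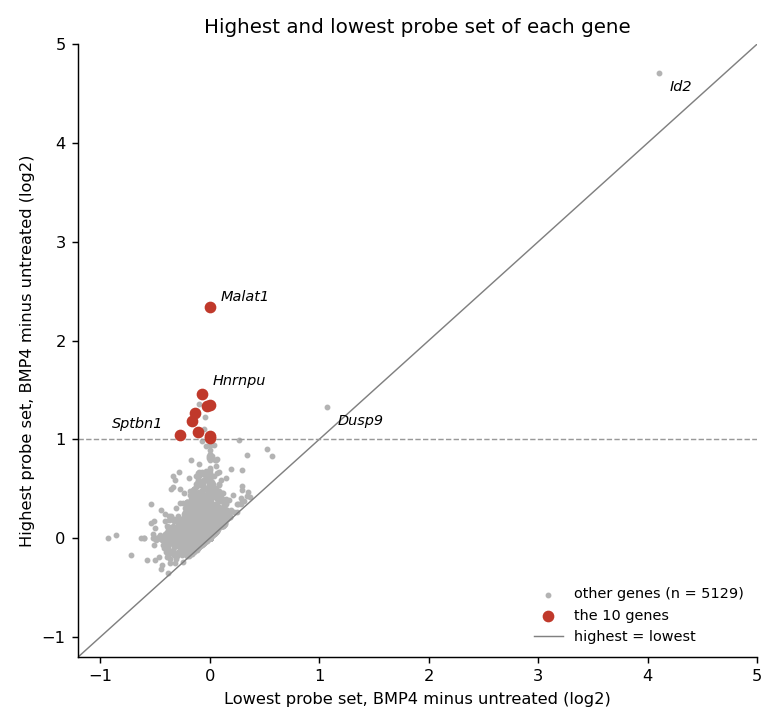
Highest (vertical) against lowest (horizontal) BMP4 minus untreated difference (log2) among the probe sets of each gene with at least 2 above the floor, 1 point per gene. The 10 genes (red) lie above the dashed 2-fold line with lowest values between −0.27 and 0.00, while Id2 and Dusp9 lie near the line of equal values; grey points are the 5129 other genes.

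Genes that work with the 10 were read from 10 lists, 1 for the family or complex of each, which held 175 further genes above the floor. Of these, 6 had a probe set at least 1.5-fold higher with BMP4, 3.43%, and none had one 1.5-fold lower. Of all 11595 genes, 0.742% had a probe set at least 1.5-fold higher, and the 10 chosen genes are among these. Only 11 of the 11595 had one at least 1.5-fold lower. A gene with more probe sets has more chances to be counted, and only 5139 of the 11595 had at least 2. Nothing is therefore read from the contrast with all genes in either direction. None of the 6 reached 2-fold, and the lists were drawn up with earlier results of these data known. The median difference by the probe set of the highest mean was between −0.02 and 0.01 in each list, and 0.00 for all genes.

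In the 6 genes, which were picked by their most extreme probe set, the probe sets differed among themselves, a split that such a choice favours. Snhg11, a long non-coding RNA that hosts small nucleolar RNAs, had probe sets at 0.98 and −0.07. Eif3a, the largest subunit of an initiation factor, ran from 0.03 to 0.94 over 4 probe sets, and Rae1, an mRNA export factor of the pore, gave 0.83 and 0.02. Among splicing genes, Tra2a ran from 0.19 to 0.70, Luc7l3 from −0.10 to 0.66 and the SR protein kinase gene Srpk2 from −0.13 to 0.63. All probe sets of Tra2a, Eif3a and Rae1 were above their untreated values, whereas at least 1 of Snhg11, Luc7l3 and Srpk2 was below.

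Other genes of the lists stayed closer to the untreated array. By the probe set of the highest mean, 2867 of all other 11585 genes were higher, 4125 lower and 4593 equal. Of 14 nuclear non-coding RNAs other than Malat1, 7 were higher, 4 lower and 3 equal by that probe set, and Neat1, the RNA of paraspeckles, named after its values were seen, measured 7.82 untreated, 7.92 with BMP4 and 7.39 with noggin. Meg3, an imprinted non-coding RNA with 10 probe sets, ran from −0.19 to 0.26. Of 22 hnRNP genes besides Hnrnpu none passed 1.5-fold, and Hnrnpa1 came closest at 0.57, while a probe set of Hnrnpd gave −0.32. The lowest splicing gene was Srrm2, a speckle scaffold, at −0.37. Among 18 condensin and cohesin genes Smc4 and Smc1a each had a probe set at 0.58, just under the 1.5-fold limit, and Nipbl, the cohesin loader, ran from −0.35 to 0.50. Among 19 spindle genes 11 were lower, 2 higher and 6 equal, from Wdr62 at −0.30 to a probe set of Cenpf at 0.43. In the lists of Atrx, Sptbn1 and Gbf1 the differences of further genes lay between −0.46 and 0.47, with the spectrin partner Ank2 and the remodeller Smarca5 at the ends. Ank2 was below the floor on both arrays compared, at 3.34 and 2.88, and was kept through its noggin value.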

How the data were processed

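Total RNA of the 3 cultures was labelled with biotin and read on 1 Affymetrix array each, per the labels' protocols. The authors deposited a table of log2 values with 1 row per probe set, made by RMA according to the submitters' processing notes; its version and settings are not given in the sources used here. RMA makes the arrays' distributions alike, so a shift common to most transcripts would not show, and its median polish over few arrays can return exactly equal values, so small differences may be printed as 0.00. The number of arrays, 1 per group, limits the precision.

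The values were used as deposited. Probe sets were named from the platform annotation: 34945 had 1 gene symbol, 932 several and 9160 none, and 64 were controls. Entrez identifiers of 34741 matched RefSeq genes (GRCm38.p6, used for names and the promoter windows), all 49 of the described probe sets among them, and 0 symbols changed. A probe set was kept when its highest value exceeded 3.44. Equal means within 1e-06. Differences were counted by size, with no test, in Python 3.11.15 with pandas 2.3.3; the counting was tested on simulated data with known answers. The genes and lists were chosen with earlier results of these data known. Named were all probe sets of the 10 genes, the 6 other genes of several probe sets with one past 2-fold in the order of their range, and, of each list, some of the genes with its largest differences; the check of cell types used marker lists. Alternatives were other floors and limits, median-centred or loess-corrected differences (span 0.3, statsmodels 0.14.6), the plain suffix alone, and other rules for 1 value per gene.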

Additional observations from a re-analysis of the deposited data

How the results depend on the processing

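The 13 high probe sets of the 10 genes, the 30 over the array and the 14 discordant genes were the same in number with loess-corrected differences. Median centring had nothing to move, as the median BMP4 difference was 0.00. With no floor the discordant genes numbered 16. With a floor at the 75th percentile of all values they numbered 9, as fewer probe sets were kept. The high probe sets then numbered 10 in the 10 genes and 25 over the array, and the ranges of Nktr and Pabpc1 could not be computed. With the plain suffix alone there were 9 high probe sets in the 10 genes, 21 over the array and 10 discordant genes. At a limit of 1.5-fold the array held 118 higher probe sets and 71 discordant genes, and at 3-fold 6 and 1, with 2 probe sets of the 10 genes, both of Malat1, left. The count of the 10 genes past 2-fold was 2 by the probe set of the highest mean over the arrays, 1 by that of the highest untreated value (chosen after seeing the data), 0 by the mean, 0 by the median and 10 by the largest difference. All 28 recomputed ranges within a gene moved by less than the within-gene SD of 0.13, which is a spread between probe sets and not an error of a range. With no floor, the range of a gene without a probe set under the floor could not move. The count of 0 with noggin held under all 7 alternatives. A higher floor, a limit of 3-fold and the plain suffix alone could not have raised it. No paired analysis was possible because each group has 1 array. With no replicates, no difference could be set against a spread between samples.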
